A study of Homo sapiens with 9 samples.

Results

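S2-007 is a subline of SUIT-2, a human cell line of pancreatic ductal adenocarcinoma (PDAC), and its transcriptome was set against those of the sublines S2-020 and S2-028 from the same parental line. All 3 S2-007 libraries were compared with all 6 libraries of the other sublines, with S2-020 and S2-028 given equal weight. A gene was described as separated when its level in every S2-007 library lay above, or in every S2-007 library below, its level in all 6 others. Of 42717 genes in the count table, 3071 were higher and 3092 were lower in S2-007 by this rule.

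The study used these lines for their maspin, the serine protease inhibitor encoded by SERPINB5: S2-007 carries it in nucleus and cytoplasm (panMaspin), S2-028 in the cytoplasm (cytMaspin), and in S2-020 it was weakly detected. Each subline gave 3 libraries of strand-specific poly(A) mRNA, sequenced from untreated cells of pancreatic adenocarcinoma kept in DMEM with 10% fetal bovine serum. No source states that the libraries came from separate cultures, so the p-values below measure the spread between these libraries only. Each subline is a single line, and what is particular to a line cannot be told apart from where its maspin lies.

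Pancreatic and intestinal epithelia share a set of lineage transcription factors. HNF4A, a nuclear receptor, and CDX2, a homeodomain protein, act on genes of absorptive cells, among them transporters, peptidases and the proteins that build the microvilli of the brush border. PDAC is commonly divided into a classical programme, rich in gut and secretory epithelial genes, and a basal-like programme with squamous features. Metallothioneins, by contrast, are small cysteine-rich proteins that bind zinc and copper, and their genes respond to metal through metal response elements near the start site.

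Counts per library ranged from 60328748 to 86253923, with 4.29 to 4.75% in the 10 most abundant genes. Levels are given as CPM, that is, read counts scaled to a common library size, after TMM normalization. Within a subline the log2 levels correlated across genes at r = 0.976 to 0.981, against 0.943 to 0.946 between S2-007 and S2-020, 0.949 to 0.951 between S2-007 and S2-028, and 0.941 to 0.943 between the other sublines (genes are not independent replicates). The libraries were epithelial: the summed level of 6 ductal and epithelial markers was 9540 to 10100 CPM in S2-007, 4310 to 5430 CPM in S2-020 and 15200 to 17800 CPM in S2-028. Summed markers of fibroblasts, leukocytes, endothelial cells, acinar cells and endocrine cells stayed below 10 CPM in every library.

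SERPINB5 itself was highest in S2-007. It gave 203, 221 and 211 CPM in S2-007, 6.9, 6.68 and 6.08 CPM in S2-020 and 26.3, 26 and 30.9 CPM in S2-028. The groups did not overlap (log2 fold change 3.97 ± 0.06, adjusted p = 1.78e-22; the error of a fold change is its SE throughout).

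Among 28019 genes with enough counts to test, 2397 (8.55%) were called higher and 2186 (7.8%) lower in S2-007 than the mean of the other sublines. A call required an adjusted p under 0.05 and a 1.5-fold difference. Of the genes tested, 2925 (10.4%) were separated upward and 3027 (10.8%) downward. Both conditions held for 1634 genes in the higher direction (5.83% of genes tested) and 1585 in the lower (5.66%), and these 3219 genes (11.5%) are the ones described below. The shares of 5.83% upward and 5.66% downward are the background for the share of each gene list. That background includes long noncoding RNAs, which were 33.7% of genes tested but 17.1% of the higher and 11.4% of the lower genes. It is therefore lower than the share among coding genes, which make up most of the listed genes. The lists were chosen with earlier results of these data known. Separation and the test read the same 9 libraries, so the fold changes and p-values of separated genes describe them and do not add independent evidence. With the other 6 libraries pooled as a single group, the calls numbered 1134 higher and 1356 lower.

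The 1634 higher genes had a median log2 fold change of 1.27, and 452 of them differed by 4-fold or more. The 1585 lower genes had a median of -1.05, and 322 differed by 4-fold or more. The gap between the nearest S2-007 library and the nearest other library was at least 4-fold for 145 higher and 88 lower genes. Gaps were taken from log2 CPM with a prior count of 2 added, so for genes with few reads they are smaller than the ratio of the CPM printed. At the other end, RBKS and RAET1K were separated by log2 gaps of 0.0001 and 0.0014, while LINC01843 and LOC124902275 missed separation by 0.0003 and 0.0001. Protein-coding genes made up 80.1% of the higher and 86.4% of the lower genes, against 61.6% of genes tested, and long noncoding RNAs 17.1% and 11.4%, against 33.7%.

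S2-020 and S2-028 often differed from each other in these genes. The same call was made between them in 666 of the 1634 higher genes (40.8%) and in 606 of the 1585 lower genes (38.2%), against 21.0% of all genes tested. Of the 666, S2-020 was the higher of the pair in 251 and S2-028 in 415. Of the 606, S2-020 was the higher in 359 and S2-028 in 247. Set against each subline in turn, S2-007 had 10.9% of genes tested called higher and 9.74% lower than in S2-020, and 7.94% higher and 9.59% lower than in S2-028, and 1028 of the higher and 1089 of the lower genes described here were called against both. A further 763 genes called higher (31.8%) and 601 called lower (27.5%) were not separated. In 590 and 486 of these, the other sublines differed from each other.

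**Figure D1:**
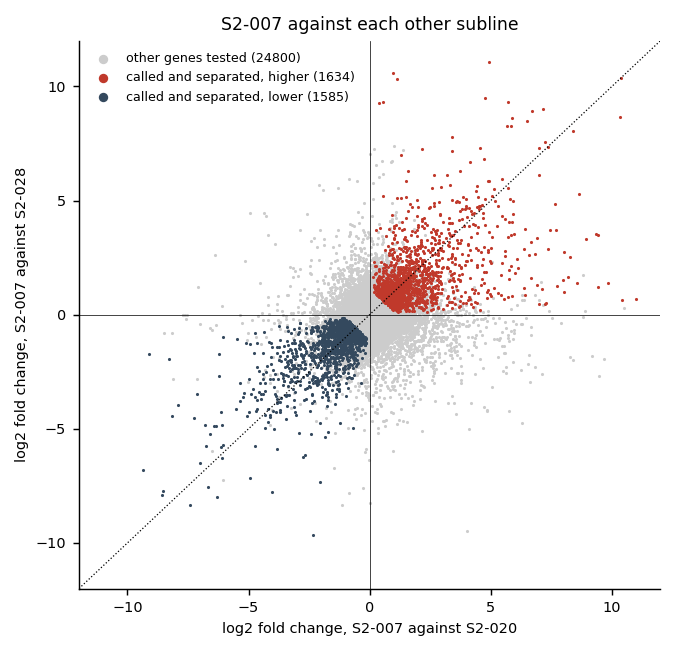
Each point is a gene tested, with its log2 fold change of S2-007 against S2-020 on the horizontal axis and against S2-028 on the vertical axis; both axes use the same S2-007 libraries, so part of the diagonal trend is shared by construction. The 1634 higher genes (red) lie upper right and the 1585 lower genes (dark blue) lower left, many of them far from the dotted line of equal difference.

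The genes farthest above both other sublines included those of retinoid and alcohol dehydrogenases, matrix proteases and products of the stomach and gut lining. ANXA10, an annexin of gastric epithelium, had 2252, 2682 and 1926 reads in the S2-007 libraries, 0, 5 and 0 reads in S2-020 and 10, 0 and 4 reads in S2-028 (a count of 0 allows up to 3 reads). In CPM this was 30.1, 36 and 26.1 CPM in S2-007, 0, 0.0601 and 0 CPM in S2-020 and 0.161, 0 and 0.0656 CPM in S2-028. The ratio of its summed counts, scaled to library size, was 411 over S2-028 (exact 95% interval 245 to 752, counting error only) and 1396 over S2-020 (598 to 4299.6).

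DHRS9, which oxidizes retinol, gave 24.5, 31.7 and 28.9 CPM in S2-007, 0.0278, 0.18 and 0.0279 CPM in S2-020 and 0.0966, 0.141 and 0.082 CPM in S2-028. Its nearest libraries were 118-fold apart (log2 fold change 8.20 ± 0.20, adjusted p = 3.13e-19). ADH1C, a class I alcohol dehydrogenase, was also in this group, at 86.9 to 124 CPM in S2-007, 1.31 to 2.55 CPM in S2-020 and 0.0626 to 0.548 CPM in S2-028 (log2 fold change 7.25 ± 0.17, adjusted p = 2.47e-19), although 33.1% of its sequence words occur in other genes and reads may have been split among paralogs.

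LYZ, which encodes the antibacterial enzyme lysozyme, gave 335, 368 and 293 CPM in S2-007, 2.5, 3.21 and 2.01 CPM in S2-020 and 2.27, 2.29 and 1.8 CPM in S2-028. Every S2-007 library exceeded every other library by at least 90.5-fold (log2 fold change 7.14 ± 0.09, adjusted p = 2.37e-23), and 34.7% of its exon bases lie under another annotated gene. GCNT3, which branches the glycans of mucins, was at 119.8 to 142 CPM in S2-007, 2.83 to 3.76 CPM in S2-020 and 4.26 to 5.49 CPM in S2-028 (log2 fold change 5.02 ± 0.08, adjusted p = 6.95e-22). PPP1R1B, an inhibitor of protein phosphatase 1, was at 138 to 168 CPM in S2-007, 0.557 to 2.37 CPM in S2-020 and 0.197 to 0.47 CPM in S2-028 (log2 fold change 7.82 ± 0.18, adjusted p = 1.08e-19).

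The remaining coding genes with the widest upward gaps were VSTM2L (7.39), TMEM176A (7.50), MYO7B (5.71), the ubiquitin ligase TRIM31 (5.64) and the exocytosis gene DOC2B (5.12), with log2 fold changes in parentheses. TMEM176A and its neighbour TMEM176B were both near the counting floor in S2-028, with 4, 6 and 0 reads for TMEM176A. Noncoding genes were led by LINC02381, with 18.6, 16.8 and 16.5 CPM in S2-007, 0.0696, 0.144 and 0.139 CPM in S2-020 and 0, 0.0626 and 0.0328 CPM in S2-028. HOTTIP, a transcript from the end of the HOXA cluster, was at 9.5 to 12.1 CPM in S2-007, 1.06 to 1.5 CPM in S2-020 and 0.532 to 0.799 CPM in S2-028 (log2 fold change 3.55 ± 0.15, adjusted p = 1.06e-14). SSTR5-AS1, an antisense transcript, was at 41.1 to 52.8 CPM in S2-007, 4.92 to 6.8 CPM in S2-020 and 0.532 to 1.61 CPM in S2-028 (log2 fold change 4.27 ± 0.15, adjusted p = 2.25e-16).

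**Figure D2:**
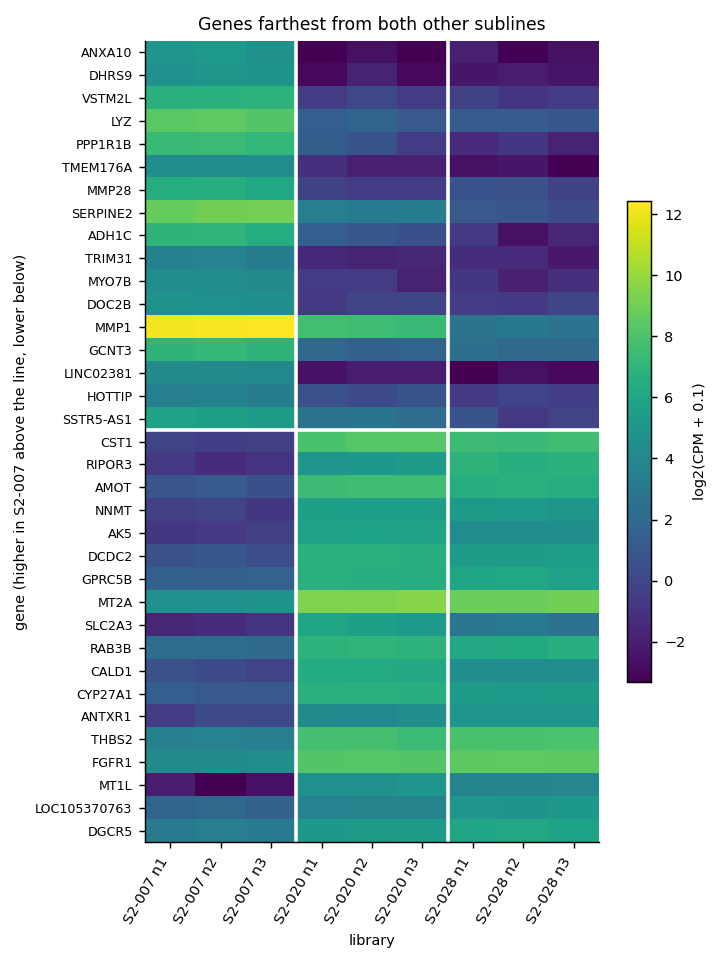
Colour gives log2(CPM + 0.1) for 17 of the 18 genes with the widest gap upward and the 18 with the widest gap downward (rows) in each of the 9 libraries (columns). The upper rows are brightest in the first 3 columns and the lower rows darkest there, while several rows, such as MMP1 and SLC2A3, also differ between S2-020 and S2-028.

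More transcription factors of the gut and pancreas were on the higher than on the lower side. Of 32 tested, 13 were called and separated upward (40.6%) and 3 downward (9.38%). Their median log2 fold change was 0.57, against 0.02 over all genes tested. HNF4A gave 225, 224 and 239 CPM in S2-007, 30.3, 27.8 and 26.4 CPM in S2-020 and 27.1, 26.1 and 21.8 CPM in S2-028. S2-020 and S2-028 overlapped, at 7.38-fold or more below S2-007 (log2 fold change 3.11 ± 0.06, adjusted p = 6.98e-21). ONECUT3 was at 48.5 to 48.9 CPM in S2-007, 3.63 to 3.94 CPM in S2-020 and 12.4 to 18.5 CPM in S2-028 (log2 fold change 2.70 ± 0.09, adjusted p = 1.53e-16), and CREB3L1, a membrane-bound factor of secretory cells, was at 1.97 to 4.49 CPM in S2-007, 0.144 to 0.39 CPM in S2-020 and 0.131 to 0.258 CPM in S2-028 (log2 fold change 3.90 ± 0.30, adjusted p = 3.39e-10). The pancreatic factor PDX1 was at 27.9 to 30.8 CPM in S2-007, 10.9 to 12.3 CPM in S2-020 and 9.71 to 12.6 CPM in S2-028 (log2 fold change 1.36 ± 0.08, adjusted p = 6.18e-12).

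Smaller differences in the same direction were found for HNF4G (1.59 ± 0.10), KLF5 (1.16 ± 0.05), the intestinal factor CDX2 (1.06 ± 0.09), PPARG (0.89 ± 0.05), ELF3 (0.71 ± 0.06), PROX1 (0.67 ± 0.25) and NR5A2 (0.61 ± 0.06), all on the log2 scale. EHF differed by 1.71 from S2-020 but by 0.43, under the 1.5-fold limit, from S2-028. KLF4 (-1.16 ± 0.08) and SOX2 (-4.47 ± 0.68) went the other way, the last at 0 reads in some S2-007 libraries. GATA6 (-0.21 ± 0.06) and SOX9 (-0.49 ± 0.06) were not called.

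Genes of absorptive cells were higher as well. Among 29 enterocyte and brush border genes tested, 17 were called and separated upward and 0 downward (58.6%, against 5.83% of all genes tested), with a median log2 fold change of 2.77. DPP4, a brush border peptidase, gave 136, 149 and 139 CPM in S2-007, 2.19, 1.27 and 1.56 CPM in S2-020 and 9, 12.4 and 10.3 CPM in S2-028. All S2-007 libraries stood 11-fold or more above the others (log2 fold change 5.08 ± 0.10, adjusted p = 3.35e-21). SLC15A1, the intestinal peptide transporter, gave 176, 199.6 and 218 CPM in S2-007, 50.4, 53.3 and 48 CPM in S2-020 and 9.07, 9.93 and 10.5 CPM in S2-028. Here the sublines formed 3 levels, S2-007 above S2-020 above S2-028 (log2 fold change 3.15 ± 0.06, adjusted p = 8.51e-21).

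Components of the microvillus were represented by USH1C at 53.4 to 55.4 CPM in S2-007, 10.7 to 13.3 CPM in S2-020 and 2.92 to 3.29 CPM in S2-028 (log2 fold change 3.14 ± 0.08, adjusted p = 2.47e-19), MYO1A at 1.24 to 2.08 CPM in S2-007, 0.362 to 0.529 CPM in S2-020 and 0.161 to 0.361 CPM in S2-028 (log2 fold change 2.39 ± 0.29, adjusted p = 4.84e-07), CDHR2 at 2.71 to 3.2 CPM in S2-007, 0.321 to 0.654 CPM in S2-020 and 0.188 to 0.295 CPM in S2-028 (log2 fold change 3.16 ± 0.25, adjusted p = 5.97e-10) and EPS8L3 at 20.7 to 24.1 CPM in S2-007, 5.05 to 6.69 CPM in S2-020 and 0.295 to 1.31 CPM in S2-028 (log2 fold change 3.48 ± 0.19, adjusted p = 4.1e-13). MYO7B, a myosin of the same structure, was among the leading genes above. FABP1, the fatty acid-binding protein of liver and gut, was low but separated, at 0.524 to 1.07 CPM in S2-007, 0 to 0.0836 CPM in S2-020 and 0 to 0.0644 CPM in S2-028 (log2 fold change 4.89 ± 0.78, adjusted p = 1.94e-05). The glucose transporter SLC5A1 was at 2.47 to 3.95 CPM in S2-007, 0.108 to 0.251 CPM in S2-020 and 1.41 to 2.03 CPM in S2-028, and its value against S2-028 alone was 0.97. Villin (VIL1, 0.31 ± 0.11, with 44.2% of its exon bases under another gene), FABP2 (-0.32 ± 0.44) and APOB (0.84 ± 0.61) were not called, and TM4SF4 (-1.88 ± 0.18) was called lower without being separated.

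Promoters of these genes were searched for short core motifs on both strands, over the 250 bases before the RefSeq start site. The HNF4 motif was taken as CAAAGT and the CDX motif as TTTATNG, whose matches can overlap the TATA box motif TATAAA. A match is a string of letters, not a binding site. Among 105 promoters of genes with an upward gap of at least 4-fold, 17.1% held the HNF4 letters and 12.4% the CDX letters, against 8.87% and 7.56% of 19622 promoters of genes tested. For 57 promoters of genes with a downward gap of that size, the shares were 1.75% and 7.02%. Over all 1223 promoters of the higher genes they were 9.32% and 7.93%, close to those of all genes tested. Other motifs were also more frequent in the 105 promoters than in those of all genes tested, the TATA box at 14.3% against 8.24%, the FOXA motif (TGTTTAC) at 5.71% against 2.54%, the GATA motif (AGATAAG) at 3.81% against 1.85% and the TEAD motif (ACATTCC) at 3.81% against 2.48%. The AP-1 motif (TGANTCA) was at 5.71% against 5.51%, the E-box (CACGTG) at 7.62% against 7.38% and the p53 family half-site (CATGTC) at 6.67% against 5.39%.

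Of 16 promoters of the enterocyte genes, 6 held the HNF4 letters (37.5%) and 2 the CDX letters (12.5%). In 5 of these 6 the HNF4 letters lay between positions -84 and -35 from the start site. The 3 below are those of MYO7B and MUC13, whose HNF4 letters lay nearest the start site, and that of FABP1, which held more than 1 match, and they were picked after the search. They come from RefSeq on GRCh38.p14, read 5′ to 3′ along the gene's strand, with matches to the HNF4 and CDX letters in capitals. Each CDX match in FABP1 reads as its reverse complement, and the last of them contains TATAAA.
MYO7B (chr2:127535433-127535682, plus strand): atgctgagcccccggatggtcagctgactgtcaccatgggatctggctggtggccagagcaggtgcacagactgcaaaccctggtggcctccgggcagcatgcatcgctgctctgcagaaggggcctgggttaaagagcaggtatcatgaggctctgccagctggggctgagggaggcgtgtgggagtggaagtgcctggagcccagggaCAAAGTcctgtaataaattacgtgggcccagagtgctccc
MUC13 (chr3:124934752-124935001, minus strand): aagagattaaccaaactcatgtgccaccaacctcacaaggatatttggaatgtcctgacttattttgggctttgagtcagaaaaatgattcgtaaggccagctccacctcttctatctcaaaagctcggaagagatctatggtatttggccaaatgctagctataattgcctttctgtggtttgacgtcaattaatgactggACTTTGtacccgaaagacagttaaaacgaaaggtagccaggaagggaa
FABP1 (chr2:88128063-88128312, minus strand): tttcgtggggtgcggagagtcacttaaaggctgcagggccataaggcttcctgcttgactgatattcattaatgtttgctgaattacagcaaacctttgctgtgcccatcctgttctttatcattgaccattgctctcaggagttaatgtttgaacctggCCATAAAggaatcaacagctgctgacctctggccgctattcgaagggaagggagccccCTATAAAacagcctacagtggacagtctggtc

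MUC13, a transmembrane mucin of the gut surface, was at 6.41 to 7.04 CPM in S2-007, 0.649 to 1.84 CPM in S2-020 and 0.0322 to 0.157 CPM in S2-028 (log2 fold change 4.39 ± 0.28, adjusted p = 9.95e-12). It and MUC3A (1.5 ± 0.18) were the members called and separated upward among 14 mucins tested (14.3%), and 0 were called and separated downward. MUC5AC (-1.05 ± 0.22) was called lower but overlapped the other sublines.

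Many markers of both PDAC programmes were higher in S2-007. Of 21 classical markers tested, 12 were called and separated upward (57.1%, median log2 fold change 2.39), and of 17 basal-like markers 6 were (35.3%, median 1.48). Neither list had a member called and separated downward, and 17 of 25 basal-like symbols had enough counts to test. The basal-like marker VGLL1 was not called (log2 fold change -2.72), with 6 reads summed over S2-007 and 3769 over S2-028. TSPAN8, a classical tetraspanin, gave 233, 252 and 232 CPM in S2-007, 28.6, 28.5 and 22 CPM in S2-020 and 65.9, 58.8 and 50.4 CPM in S2-028 (log2 fold change 2.60 ± 0.07, adjusted p = 5.73e-18). CDH17, the cadherin of intestinal epithelium, was at 19.4 to 30.1 CPM in S2-007, 3.22 to 6.67 CPM in S2-020 and 0.082 to 0.297 CPM in S2-028 (log2 fold change 4.70 ± 0.22, adjusted p = 3.17e-14). CLRN3 had reads in S2-007 and S2-020 and 0 reads in all S2-028 libraries, which put it at least 448-fold higher in S2-007 than in S2-028 at a floor of 3 reads a library.

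Several classical markers separated S2-007 narrowly from 1 subline and widely from the other. LGALS4, a galectin of the gut epithelium, gave 199.9, 210.2 and 211 CPM in S2-007, 113, 97 and 77 CPM in S2-020 and 0.322, 0.094 and 0.0656 CPM in S2-028. It was 1.11 above S2-020 and 10.32 above S2-028 on the log2 scale. CEACAM6 showed the opposite order, at 756 to 947 CPM in S2-007, 0.39 to 1.02 CPM in S2-020 and 512 to 619 CPM in S2-028, and was 0.66 above S2-028 (adjusted p = 1.61e-05) and 10.42 above S2-020. TFF2, a gastric trefoil peptide, had 0 reads in all S2-020 libraries and was at least 90.6-fold higher in S2-007.

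Among basal-like markers, LY6D gave 37.5, 34.6 and 27.3 CPM in S2-007, 0.473, 0.0481 and 0.335 CPM in S2-020 and 3.64, 3.32 and 2.71 CPM in S2-028 (log2 fold change 5.13 ± 0.19, adjusted p = 3.78e-16). SCEL, a component of the cornified envelope, was at 5.18 to 7.4 CPM in S2-007, 0 to 0.418 CPM in S2-020 and 0.125 to 0.328 CPM in S2-028 (log2 fold change 5.09 ± 0.37, adjusted p = 1.02e-10). FAM83A (2.78 ± 0.07) and FGFBP1 (2.70 ± 0.13) were closer to S2-028, at 0.73 and 0.93 above it. The squamous factor TP63 (0.07 ± 0.40) was not called, and KRT17 lay under 1 CPM in every library. Of 16 keratins tested, 3 were called and separated upward (18.8%) and 2 downward (12.5%), with a median of 0.17. KRT80 led the lower side, at 49.7 to 62.4 CPM in S2-007, 129 to 141 CPM in S2-020 and 134 to 141 CPM in S2-028 (log2 fold change -1.26 ± 0.06, adjusted p = 1.74e-13). KRT5 (-4.66) was called lower without being separated, with 16 reads summed over S2-007 and 6039 over S2-020. KRT13 (3.49), KRT15 (1.89) and KRT19 (2.25) were called higher without being separated.

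**Figure D3:**
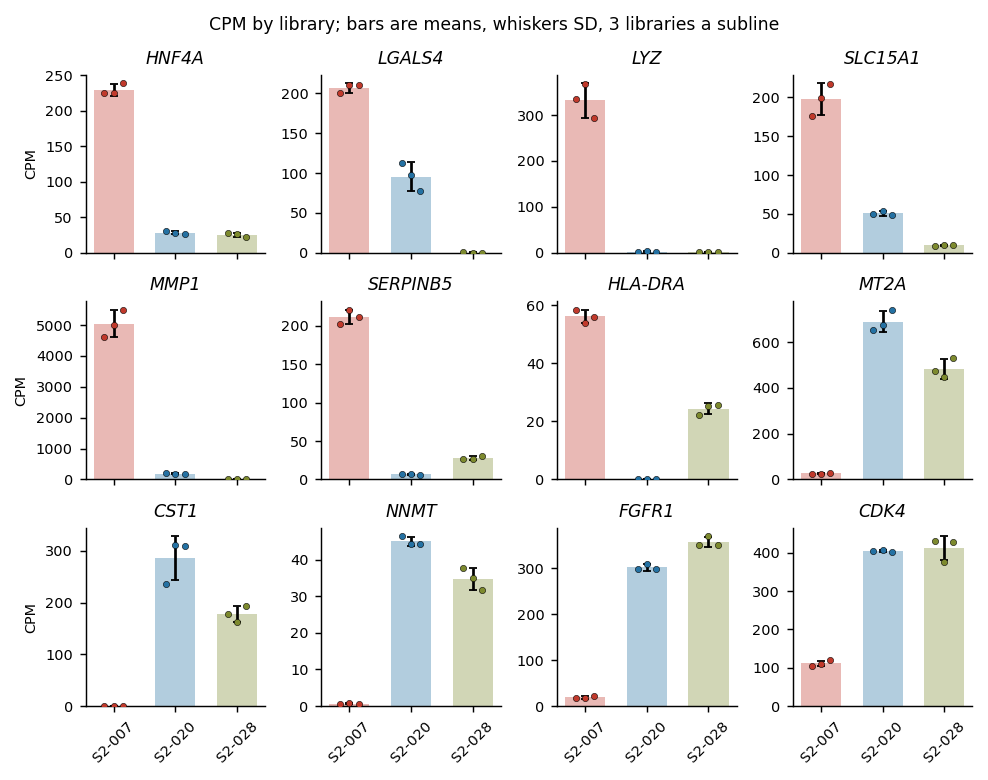
Each panel shows 1 gene, with CPM on a linear axis from 0, points for the 3 libraries of each subline, bars for means and whiskers for SD. HNF4A, LYZ, SLC15A1, MMP1 and SERPINB5 stand highest in S2-007 and MT2A, CST1, NNMT, FGFR1 and CDK4 lowest, while LGALS4 and HLA-DRA are near 0 in only 1 of the other sublines.

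Epithelial identity genes past both conditions were divided between directions, although more were called higher than lower. Of 44 junction and identity genes tested, 18 were called higher and 5 lower (median 0.44). Both conditions held for 5 of the 44 upward (11.4%) and 4 downward (9.09%). The adhesion molecule EPCAM gave 515, 542 and 525 CPM in S2-007, 124, 119.8 and 121 CPM in S2-020 and 429, 405 and 429.8 CPM in S2-028, and it was 2.12 above S2-020 but 0.32 above S2-028. The tight junction gene TJP3 was at 33.1 to 41.9 CPM in S2-007, 1.25 to 2.73 CPM in S2-020 and 14.3 to 19.5 CPM in S2-028 (log2 fold change 2.67 ± 0.13, adjusted p = 1.21e-13). CLDN2, a claudin of leaky epithelia, was lower at 119 to 147 CPM in S2-007, 231 to 284 CPM in S2-020 and 1489 to 1637 CPM in S2-028 (log2 fold change -2.27 ± 0.07, adjusted p = 3.16e-17), as were CLDN1 (-1.45 ± 0.06), PPL (-1.25 ± 0.06) and SPINT2 (-0.82 ± 0.05). E-cadherin (CDH1, 1.26 ± 0.06) was called higher without being separated, as were RAB25 (3.86), ST14 (2.81) and ESRP1 (1.91). GRHL2 (-0.87) was called lower without being separated.

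Matrix proteases and plasminogen activators went both ways. Of 32 tested, 9 were called and separated upward (28.1%) and 4 downward (12.5%), with a median of 0.3. MMP1, the interstitial collagenase, gave 4626, 4994 and 5499 CPM in S2-007, 204, 187 and 165 CPM in S2-020 and 6.59, 8.08 and 6.28 CPM in S2-028. The 3 sublines did not overlap with one another (log2 fold change 7.13 ± 0.07, adjusted p = 2.78e-25). MMP7 (matrilysin) was at 622 to 636 CPM in S2-007, 46.9 to 67.9 CPM in S2-020 and 117 to 139 CPM in S2-028 (log2 fold change 2.86 ± 0.08, adjusted p = 1.12e-18), MMP28 at 68.9 to 91.5 CPM in S2-007, 0.601 to 0.724 CPM in S2-020 and 0.754 to 1.45 CPM in S2-028 (log2 fold change 6.54 ± 0.12, adjusted p = 2.54e-21) and the membrane-type protease MMP14 at 95.5 to 103 CPM in S2-007, 49.9 to 53.8 CPM in S2-020 and 10.1 to 12 CPM in S2-028 (log2 fold change 2.03 ± 0.06, adjusted p = 6.21e-18). ADAM19 (4.73 ± 0.10) and the serine protease TMPRSS4 (3.84 ± 0.14) were also higher.

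In the plasminogen system, the tissue activator and its neighbours went in different directions. SERPINE2 (protease nexin-1), an inhibitor of thrombin and urokinase, gave 422, 510.2 and 562 CPM in S2-007, 10.7, 9.28 and 9.66 CPM in S2-020 and 2.01, 1.68 and 1.18 CPM in S2-028 (log2 fold change 6.96 ± 0.09, adjusted p = 2.37e-23). PLAT, the tissue-type activator, was higher at 273 to 351 CPM in S2-007, 135 to 152 CPM in S2-020 and 6.07 to 10.6 CPM in S2-028 (log2 fold change 3.14 ± 0.10, adjusted p = 3.56e-17). PLAU, the urokinase-type activator, was lower at 375 to 457 CPM in S2-007, 681 to 794 CPM in S2-020 and 2330.0 to 2964 CPM in S2-028 (log2 fold change -1.79 ± 0.07, adjusted p = 3.74e-15), with part of its exon bases under another annotated gene. Its receptor PLAUR was lower too, at 11.3 to 14.3 CPM in S2-007, 42.6 to 50.2 CPM in S2-020 and 17.9 to 29.7 CPM in S2-028 (log2 fold change -1.42 ± 0.12, adjusted p = 1.86e-09). TIMP3, an inhibitor of metalloproteases, was at 0.322 to 0.76 CPM in S2-007, 1.73 to 2.27 CPM in S2-020 and 63.8 to 92 CPM in S2-028, with S2-020 much nearer to S2-007 than S2-028 was.

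MHC class II genes present extracellular peptides and are usually induced by interferon gamma through CIITA. Of 17 genes tested in a list of class II genes, their regulators and CD74, 8 were called and separated upward and 0 downward (47.1%, median 1.23). All 8 were class II genes. HLA-DRA gave 58.5, 54.1 and 56 CPM in S2-007, 0.0835, 0.0481 and 0.112 CPM in S2-020 and 22.1, 25.3 and 25.8 CPM in S2-028. S2-028 held an intermediate level and S2-020 had almost no reads (log2 fold change 5.32 ± 0.10, adjusted p = 3.44e-21). HLA-DRB1 (4.11 ± 0.09), HLA-DPA1 (3.14 ± 0.22), HLA-DPB1 (3.04 ± 0.19), HLA-DMA (1.97 ± 0.08), HLA-DMB (1.37 ± 0.10) and HLA-DQB1 (1.23 ± 0.13) were in the same direction. HLA-DRB5 (4.10 ± 0.28) shares 19.6% of its sequence words with other genes, so its reads are less certain. CIITA (0.32 ± 0.07) and RFX5 (-0.10 ± 0.05) were not called, and CD74 (3.76 ± 0.06) was called but overlapped.

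Genes of class I presentation passed both conditions about as often as all genes tested. Of 23, B2M and HLA-F (2.17 ± 0.12) were called and separated upward (8.7%, against 5.83%) and the peptidase ERAP1 downward (4.35%, against 5.66%), with a median of -0.12. B2M gave 620.0, 658 and 664 CPM in S2-007, 356, 349.7 and 315 CPM in S2-020 and 332, 305 and 306 CPM in S2-028 (log2 fold change 0.99 ± 0.05, adjusted p = 9.73e-14). HLA-B (-0.11 ± 0.06), which shares 38.1% of its words with other genes, and HLA-C (0.20 ± 0.05) were not called.

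Of 38 interferon-stimulated genes tested, 10 were called and separated upward (26.3%) and 3 downward (7.89%), with a median of 0.35. IFI27 gave 64.3, 66.1 and 67 CPM in S2-007, 15.8, 16.4 and 16.8 CPM in S2-020 and 2.93, 2.33 and 2.33 CPM in S2-028 (log2 fold change 3.35 ± 0.07, adjusted p = 2.21e-20). OAS1, which makes the activator of RNase L, was at 69.7 to 73.3 CPM in S2-007, 17.2 to 23.5 CPM in S2-020 and 12.9 to 15.7 CPM in S2-028 (log2 fold change 2.08 ± 0.08, adjusted p = 7.59e-16), and SAMD9L was at 13 to 17.7 CPM in S2-007, 2.87 to 5.21 CPM in S2-020 and 2.97 to 4.41 CPM in S2-028 (log2 fold change 1.99 ± 0.15, adjusted p = 2.42e-10). STAT2 (-1.23 ± 0.08), HERC5 (-1.11 ± 0.15) and IFIT5 (-0.62 ± 0.09) were lower, and ISG15 (-0.09 ± 0.07) and IFIT1 (0.05 ± 0.20) were not called. Of 21 chemokines and cytokines, 5 were called and separated upward (23.8%) and 0 downward, with a median of 0.9. IL18 was at 86.5 to 96.9 CPM in S2-007, 38.5 to 47.1 CPM in S2-020 and 26.9 to 32.4 CPM in S2-028 (log2 fold change 1.34 ± 0.07, adjusted p = 1.39e-13). CXCL16 differed from S2-028 by 0.41 only. CXCL8, CCL20 and CXCL1 were called at levels under 3 CPM.

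Genes of detoxification went both ways, with more on the higher side. The UGT1A locus encodes glucuronosyltransferases that add glucuronic acid to bilirubin and drugs, from alternative first exons spliced to shared later exons. All 9 UGT1A genes tested were called and separated upward (median log2 fold change 4.33), but they share exons and 43 to 84% of their words, so they count as a single locus, and the list was drawn up after the values were seen. UGT1A1 gave 55, 66.7 and 54.7 CPM in S2-007, 2.7, 1.98 and 1.1 CPM in S2-020 and 1.05, 1.3 and 0.721 CPM in S2-028 (log2 fold change 5.38 ± 0.15, adjusted p = 4.15e-18). Of 24 NRF2 target genes, 6 were called and separated upward and 2 downward (median 0.32). GPX2, the gastrointestinal glutathione peroxidase, was at 129.7 to 155 CPM in S2-007, 0.12 to 0.209 CPM in S2-020 and 50.8 to 56.6 CPM in S2-028 (log2 fold change 5.61 ± 0.08, adjusted p = 1.32e-22). AKR1B10, an aldo-keto reductase, was at 44.3 to 52.1 CPM in S2-007, 0.251 to 0.307 CPM in S2-020 and 3.12 to 4.51 CPM in S2-028 (log2 fold change 5.56 ± 0.11, adjusted p = 1.28e-20), with 31.5% of its words shared. The exporters ABCC3 (1.35 ± 0.05) and ABCC1 (1.29 ± 0.06) were higher, ABCC2 (-0.95 ± 0.08) and ME1 (-0.91 ± 0.08) were lower, and NQO1 (-0.15 ± 0.07) was not called.

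On the lower side, the widest gap belonged to a cystatin. CST1, a secreted inhibitor of cysteine proteases, gave 0.855, 0.672 and 0.706 CPM in S2-007, 237, 311 and 309 CPM in S2-020 and 178, 163 and 194 CPM in S2-028. No other library came within 184-fold of S2-007 (log2 fold change -8.24 ± 0.13, adjusted p = 2.31e-22), and 36.1% of its words occur in other genes. Of 7 type 2 cystatins tested, a list drawn up after the values were seen, 4 were called and separated downward (57.1%, median -0.88). CST3 (cystatin C), which shares 0.2% of its words, was at 69.7 to 77.1 CPM in S2-007, 134 to 138 CPM in S2-020 and 128 to 141 CPM in S2-028 (log2 fold change -0.88 ± 0.05, adjusted p = 4e-12). CST4 was at 0.295 to 0.347 CPM in S2-007, 3.44 to 5.24 CPM in S2-020 and 16.3 to 20.4 CPM in S2-028 (log2 fold change -4.85 ± 0.19, adjusted p = 1.8e-15), with 48.5% of its words shared.

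Metallothioneins were low in S2-007. Of 8 tested, again a list drawn up after the values were seen, 7 were called and separated downward and 0 upward (87.5%, against 5.66% of genes tested, median -3.16). MT2A gave 25.3, 24.9 and 28.8 CPM in S2-007, 653, 674 and 742 CPM in S2-020 and 473, 447 and 532 CPM in S2-028. The S2-007 libraries lay 15.5-fold or more below the others (log2 fold change -4.46 ± 0.08, adjusted p = 9.35e-22). MT1E was at 10.3 to 13.7 CPM in S2-007, 132 to 139.7 CPM in S2-020 and 78.3 to 96.6 CPM in S2-028 (log2 fold change -3.22 ± 0.09, adjusted p = 2.87e-18) and MT1X at 3.05 to 4.41 CPM in S2-007, 27.3 to 29.1 CPM in S2-020 and 7.34 to 10.9 CPM in S2-028 (log2 fold change -2.07 ± 0.13, adjusted p = 8.51e-12). MT1A (-4.32 ± 0.21), MT1M (-3.11 ± 0.17, 44.4% of words shared) and MT1F (-1.97 ± 0.13) were lower as well, MT1F by -0.54 against S2-028.

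Among noncoding genes MT1L had the widest downward gap, at 0 to 0.134 CPM in S2-007, 24 to 29.2 CPM in S2-020 and 13.6 to 15.3 CPM in S2-028, although its exons lie wholly under another annotated gene and its reads cannot be assigned to it alone. The metallothionein genes lie together on chromosome 16. Of those called, MT2A and MT1X had a promoter in the sequence table, and both are shown because the string TGCNCNC recurs in them. It is a loose form of the metal response element core, with any base allowed at each N. The motif was added after the values were seen. At least 1 match on either strand was found in 48.4% of 27305 promoters, at least 4 in 1.7% and at least 7 in 0.0952%. MT1X held 4 matches and MT2A 7, in capitals below (RefSeq, GRCh38.p14, 250 bases before the start, 5′ to 3′ along the gene's strand).
MT2A (chr16:56608334-56608583, plus strand): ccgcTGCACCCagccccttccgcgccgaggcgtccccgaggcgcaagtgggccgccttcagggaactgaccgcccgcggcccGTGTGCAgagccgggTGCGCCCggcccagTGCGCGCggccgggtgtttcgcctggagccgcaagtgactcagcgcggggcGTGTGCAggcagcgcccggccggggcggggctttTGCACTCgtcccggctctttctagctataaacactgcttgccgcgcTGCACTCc
MT1X (chr16:56682220-56682469, plus strand): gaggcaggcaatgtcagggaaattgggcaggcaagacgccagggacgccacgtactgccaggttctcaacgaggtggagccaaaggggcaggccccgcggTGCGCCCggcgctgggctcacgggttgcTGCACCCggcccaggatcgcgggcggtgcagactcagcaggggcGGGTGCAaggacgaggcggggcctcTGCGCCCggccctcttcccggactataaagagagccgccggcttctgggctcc

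Several leading lower genes act on the matrix, the cytoskeleton or growth signals. FGFR1, a receptor for fibroblast growth factors, gave 16.7, 18.1 and 22.1 CPM in S2-007, 297, 309.6 and 298 CPM in S2-020 and 351, 369 and 350.1 CPM in S2-028. All 6 other libraries were 13.4-fold or more above S2-007 (log2 fold change -4.11 ± 0.08, adjusted p = 3.98e-21). THBS2, a matrix thrombospondin, was at 10.7 to 12.6 CPM in S2-007, 173 to 221 CPM in S2-020 and 236 to 251 CPM in S2-028 (log2 fold change -4.25 ± 0.08, adjusted p = 8.94e-21), with exons that overlap another annotated gene over 31.2% of their bases. AMOT, a scaffold of the Hippo pathway, gave 1.68, 2.15 and 1.33 CPM in S2-007, 181, 196 and 183 CPM in S2-020 and 91.5, 103 and 88.3 CPM in S2-028 (log2 fold change -6.27 ± 0.11, adjusted p = 1e-21). CALD1, the actin-binding caldesmon, was at 0.842 to 1.4 CPM in S2-007, 73.9 to 83.5 CPM in S2-020 and 20.7 to 21.4 CPM in S2-028 (log2 fold change -5.20 ± 0.11, adjusted p = 4.95e-20), and ANTXR1, a collagen-binding receptor, was at 0.641 to 1.17 CPM in S2-007, 16.5 to 21.5 CPM in S2-020 and 29.6 to 30.2 CPM in S2-028 (log2 fold change -4.65 ± 0.15, adjusted p = 3.43e-17).

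Other leading lower genes encode metabolic enzymes and transporters. NNMT, which methylates nicotinamide, gave 0.695, 0.819 and 0.489 CPM in S2-007, 46.3, 44.1 and 44.4 CPM in S2-020 and 37.6, 34.8 and 31.6 CPM in S2-028. All 6 other libraries lay between 31.6 and 46.3 CPM (log2 fold change -5.88 ± 0.12, adjusted p = 2.6e-20). SLC2A3, the glucose transporter GLUT3, was at 0.227 to 0.407 CPM in S2-007, 36 to 61.7 CPM in S2-020 and 6.41 to 8.44 CPM in S2-028 (log2 fold change -5.91 ± 0.21, adjusted p = 3.14e-16), with 27.8% of its words shared with other genes. CYP27A1, the sterol hydroxylase, was at 1.98 to 2.48 CPM in S2-007, 92.2 to 104 CPM in S2-020 and 35 to 40.0 CPM in S2-028 (log2 fold change -4.82 ± 0.09, adjusted p = 5.59e-21), and AK5, an adenylate kinase, at 0.481 to 0.679 CPM in S2-007, 50.8 to 55.2 CPM in S2-020 and 19.7 to 23.1 CPM in S2-028 (log2 fold change -5.91 ± 0.12, adjusted p = 1.56e-20). The other coding genes with the widest downward gaps were RIPOR3 (-7.15), DCDC2 (-5.47), GPRC5B (-4.75) and the vesicle GTPase RAB3B (-4.41). The noncoding genes LOC105370763 and DGCR5 had log2 fold changes of -2.57 and -2.33.

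Mesenchymal genes went both ways. Of 28 tested, 4 were called and separated upward (14.3%) and 6 downward (21.4%), with a median of 0.26. SNAI2, a transcriptional repressor of epithelial genes, was higher at 11.9 to 16.1 CPM in S2-007, 0.505 to 0.78 CPM in S2-020 and 0.251 to 0.689 CPM in S2-028 (log2 fold change 4.64 ± 0.19, adjusted p = 3.14e-15), whereas its relative SNAI1 was lower at 0.294 to 0.57 CPM in S2-007, 0.78 to 1.31 CPM in S2-020 and 0.838 to 1.25 CPM in S2-028 (log2 fold change -1.37 ± 0.32, adjusted p = 0.00168). The collagens COL5A1 (-3.34 ± 0.18) and COL6A3 (-3.96 ± 0.19), the crosslinking enzyme LOX (-3.24 ± 0.16), FN1 (-2.15 ± 0.35) and TGFBI (-0.85 ± 0.06) were lower. COL6A1 (0.94 ± 0.09), COL6A2 (1.46 ± 0.14) and TAGLN (0.88 ± 0.09, with 47.8% of its exon bases under another gene) were higher, and VIM (0.34 ± 0.06), ZEB1 (0.23 ± 0.07) and ZEB2 (-0.08 ± 0.30) were not called.

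Among 31 integrins and laminins, 7 were called and separated upward (22.6%) and 6 downward (19.4%), with a median of 0.19. The laminin chains LAMC1 and LAMB1 were lower, at 169 to 191 CPM in S2-007, 448 to 469.9 CPM in S2-020 and 374 to 388 CPM in S2-028 (log2 fold change -1.23 ± 0.05, adjusted p = 3.84e-15) and 159.8 to 187 CPM in S2-007, 349.7 to 372 CPM in S2-020 and 339.8 to 386 CPM in S2-028 (log2 fold change -1.10 ± 0.06, adjusted p = 4.4e-13). LAMB3 (-0.81 ± 0.08) and the integrin subunits ITGAV (-0.66 ± 0.05), ITGA5 (-1.19 ± 0.07) and ITGA4 (-1.92 ± 0.40) were lower too. ITGB6, which pairs with ITGAV, was higher at 57.3 to 73.6 CPM in S2-007, 0.934 to 1.24 CPM in S2-020 and 33.9 to 39.1 CPM in S2-028 (log2 fold change 3.34 ± 0.09, adjusted p = 7.34e-19). ITGB8 (1.23 ± 0.05) and ITGA2 (1.36 ± 0.05) exceeded S2-028 by 0.51 and 0.19.

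Of 15 ErbB ligands and receptors, 4 ligands were called and separated downward (26.7%) and 1 upward (6.67%), with a median of -0.32. The EGFR ligands BTC and EREG were at 3.31 to 3.45 CPM in S2-007, 6.26 to 6.65 CPM in S2-020 and 21 to 25.3 CPM in S2-028 (log2 fold change -1.85 ± 0.11, adjusted p = 1.26e-12) and 235 to 282 CPM in S2-007, 300.4 to 369 CPM in S2-020 and 717 to 741 CPM in S2-028 (log2 fold change -0.97 ± 0.06, adjusted p = 2.24e-11). The neuregulins NRG1 (-1.73 ± 0.12) and NRG2 (-1.36 ± 0.16) were lower and NRG4 (1.72 ± 0.18) was higher, the last with 38.2% of its exon bases under another gene. EGFR (-0.22 ± 0.04) and ERBB2 (0.48 ± 0.05) were not called, and ERBB3 (1.36 ± 0.08) and TGFA (1.21 ± 0.05) were called higher without being separated.

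Some genes of the cell cycle were lower. Of 32 proliferation genes, 14 were separated downward and 0 upward, against 10.8% and 10.4% of genes tested, and 4 of the 14 were also called (12.5%, against 5.66%, median -0.23). MCM2 was at 182 to 215 CPM in S2-007, 313 to 324 CPM in S2-020 and 348 to 404 CPM in S2-028 (log2 fold change -0.84 ± 0.06, adjusted p = 7.48e-11). CCND3 (-0.98 ± 0.07), CDC20 (-0.67 ± 0.05) and CDC6 (-0.68 ± 0.06) were the others, and MKI67 (0.09 ± 0.04) was not called. Of 23 p53 targets, 5 were called and separated upward (21.7%) and 2 downward (8.7%), with a median of 0.14. CDKN1A, the inhibitor p21, was at 72.9 to 89.8 CPM in S2-007, 9.04 to 13.7 CPM in S2-020 and 25.7 to 33 CPM in S2-028 (log2 fold change 2.15 ± 0.10, adjusted p = 1.59e-14), TP53I3 was higher (0.94 ± 0.07), and the apoptosis genes BBC3 (-1.74 ± 0.17) and BAX (-0.74 ± 0.06) were lower.

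In other lists the shares past both conditions were near those of all genes tested, 5.83% upward and 5.66% downward. The downward share of the glycolysis and hypoxia list was an exception. Of 29 glycolysis and hypoxia genes, 2 were called and separated upward (6.9%) and 3 downward (10.3%, median -0.16), with CA12 higher (1.85 ± 0.09) and VEGFA lower (-1.29 ± 0.08). Of 24 genes of cholesterol synthesis the counts were 1 and 1 (4.17% each, median 0.01). Of 19 WNT genes the counts were also 1 and 1 (5.26% each, median -0.01), and LGR5, a receptor of intestinal stem cells, was higher at 30.1 to 36.5 CPM in S2-007, 4.84 to 7.57 CPM in S2-020 and 3.16 to 3.85 CPM in S2-028 (log2 fold change 2.83 ± 0.11, adjusted p = 1.49e-15). ZNRF3 fell by 0.65 on the log2 scale, and without S2-007 replicate 1 it was at -0.55, under the limit.

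Markers of other cell types varied by list. Of 10 acinar genes tested 0 were called and separated in either direction, and of 12 endocrine genes ISL1 was, upward (2.24 ± 0.11). Of 12 endothelial genes EGFL7 was, upward (1.28 ± 0.12), so the endocrine and endothelial lists each had 8.33% upward against 5.83% of genes tested. Of 15 leukocyte genes CD68 (2.19 ± 0.08), CD14 and CORO1A were higher (20.0%), and CD3E, with 0 reads in every S2-007 library and under 1 CPM elsewhere, was lower (6.67%). For CD68, 85.6% of exon bases lie under another gene and 77.1% of words are shared, so its reads cannot be assigned to it alone. Of 6 clade B serpins tested, SERPINB5 was the 1 member past both conditions.

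**Figure D4:**
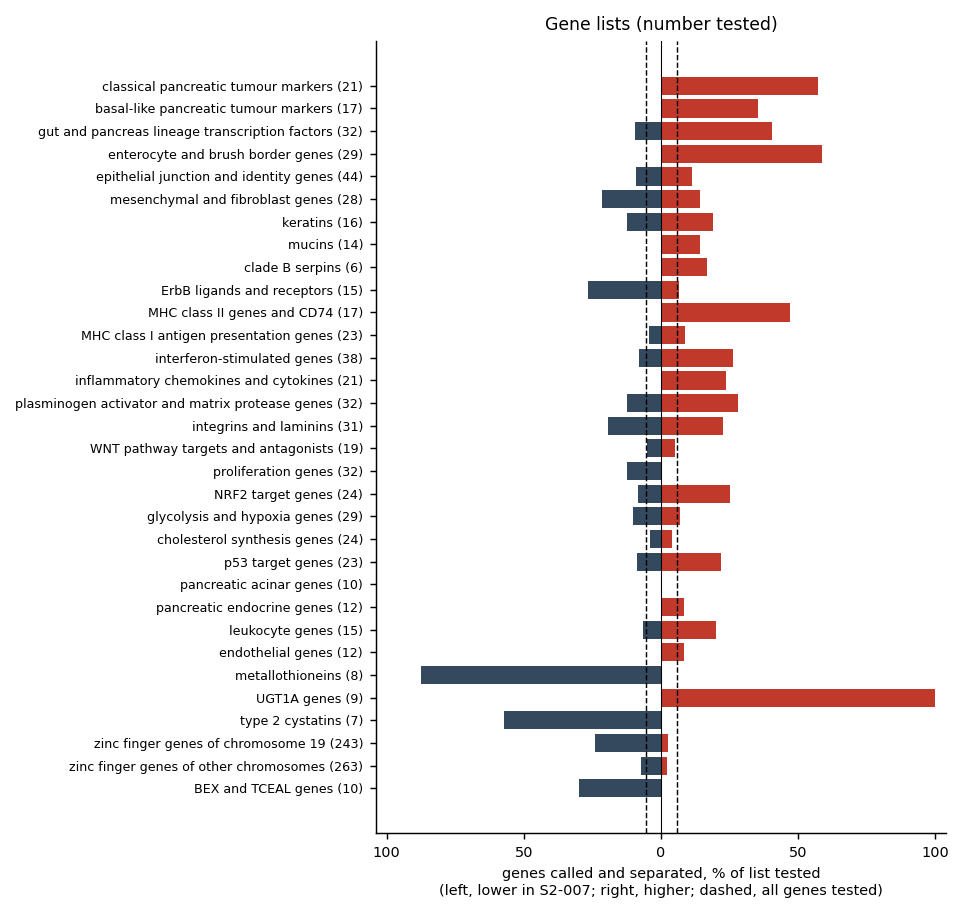
Bars give the share of each list's tested genes (number in parentheses) called and separated higher (right, red) or lower (left, dark blue) in S2-007, and dashed lines give 5.83% and 5.66% over all genes tested. The last 6 lists were drawn up after the values were seen, and the others with earlier results of these data known. Enterocyte genes reach 58.6% on the higher side and metallothioneins 87.5% on the lower.

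The genes were unevenly placed along the genome. Chromosome X had 12.6% of its 870 tested genes on the lower side and 2.99% on the higher, and chromosome 19 had 12.9% of 1610 lower and 4.35% higher. Chromosome 21 had the highest share on the upper side, 9.29% of 366, followed by chromosome 11 with 8.47% and chromosome 2 with 7.96%. Zinc finger genes, many of which encode KRAB repressors, are numerous on chromosome 19. There, 58 of 243 tested were called and separated downward (23.9%) and 6 upward, against 19 of 263 (7.22%) and 6 on other chromosomes, in lists drawn up after the values were seen. ZNF71 gave 0.134, 0.107 and 0.163 CPM in S2-007, 2.28, 2.98 and 2.15 CPM in S2-020 and 2.25, 2.33 and 2.69 CPM in S2-028 (log2 fold change -4.17 ± 0.28, adjusted p = 3.06e-11), and ZNF544 was at 6.04 to 6.23 CPM in S2-007, 15.4 to 15.6 CPM in S2-020 and 17.9 to 19.7 CPM in S2-028 (log2 fold change -1.47 ± 0.09, adjusted p = 3.95e-12).

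**Figure D5:**
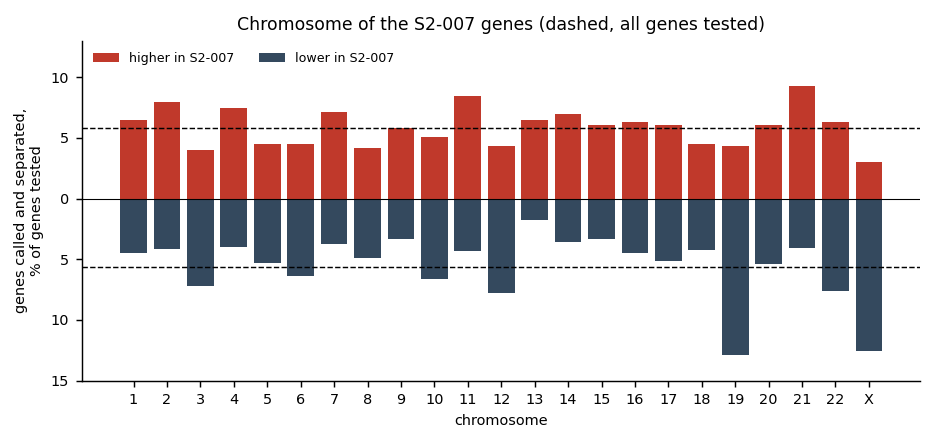
Bars give, for each chromosome, the share of tested genes called and separated higher (upward, red) or lower (downward, dark blue) in S2-007, in percent, and dashed lines give the shares over all genes tested. Chromosomes 19 and X reach 12.9% and 12.6% on the lower side, and chromosome 21 reaches 9.29% on the higher.

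In windows of 50 neighbouring tested genes the median log2 fold change had a 5th percentile of -0.268 and a 95th percentile of 0.245 over 26711 overlapping windows. The lowest window was on chromosome 12, where gene starts ran from 56977085 (LOC124902945) to 59596029 (SLC16A7) on GRCh38.p14. Its median was -1.09, with 27 genes called and separated lower and 2 higher. Against S2-020 the median was -0.967 and against S2-028 -0.956, in comparisons that share the S2-007 libraries. CDK4, the cyclin D-dependent kinase, gave 105, 110.0 and 119 CPM in S2-007, 405, 408 and 402 CPM in S2-020 and 432, 377 and 428 CPM in S2-028. S2-020 and S2-028 overlapped and every S2-007 library was 3.15-fold or more below them (log2 fold change -1.87 ± 0.06, adjusted p = 2.18e-17), though other annotated genes cover 44.2% of its exon bases.

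Neighbours of CDK4 in that window included the methionyl-tRNA synthetase MARS1 at 147 to 154 CPM in S2-007, 497 to 587 CPM in S2-020 and 329.6 to 384 CPM in S2-028 (log2 fold change -1.55 ± 0.06, adjusted p = 1.52e-15), SHMT2 of serine metabolism at 149 to 169 CPM in S2-007, 475 to 561 CPM in S2-020 and 364 to 430.2 CPM in S2-028 (log2 fold change -1.54 ± 0.07, adjusted p = 8.02e-15) and OS9 of protein quality control at 136 to 143 CPM in S2-007, 329.7 to 334 CPM in S2-020 and 281 to 297 CPM in S2-028 (log2 fold change -1.15 ± 0.05, adjusted p = 3.79e-15). B4GALNT1 had the largest difference among its coding genes past both conditions (-3.06). MYO1A and LRP1 (2.04 ± 0.09) were the 2 higher genes. The adjoining window, from GDF11 to PRIM1, had a median of -0.637 with 25 genes lower and 1 higher, among them CDK2 (-0.93), STAT2 and TIMELESS (-1.24). No copy number was measured here.

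On chromosome X the window from TIMM8A to TEX13A had a median of -0.674 and 21 genes lower, but the medians against each subline were unequal, -0.206 for S2-020 and -1.11 for S2-028. It holds ARMCX1 (-1.56 ± 0.13), ARMCX2 (-2.31 ± 0.20) and the brain-expressed genes BEX2 (-2.51 ± 0.17), BEX3 (-1.55 ± 0.06) and BEX4 (-1.73 ± 0.30). Of 10 BEX and TCEAL genes tested, a list drawn up after the values were seen, 3 were called and separated downward (30.0%, median -0.58). A window on chromosome 10, from ANTXRLP1 to OGDHL, had a median of -0.677 with 16 genes lower, among them ARHGAP22 (-2.27). Windows in the other direction were milder, and the highest median was 0.508 on chromosome 11, with 11 genes higher.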

How the data were processed

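Per the labels and the study's methods, the authors trimmed reads with Trimmomatic 0.39, aligned them to GRCh38.p14 with BWA 0.7.17, which is not splice-aware, and used SAMtools 1.12. The labels name edgeR 3.16.5, and the study's methods name a different edgeR version. The counting tool, its use of strand and its handling of multiply mapped reads are not given in the sources used here. The deposited read counts per gene were used, and 18 columns of normalized signal deposited by the authors were not. The 2 rows that name no gene were dropped, and 99.6% of gene IDs matched the RefSeq table.

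Counts of all 9 libraries were fitted with edgeR 4.0.16 in R 4.3.3 (quasi-likelihood F-test, TMM normalization, low genes removed by filterByExpr at a count of 10 and total of 15), with S2-007 against the equally weighted mean of the other lines. Calls needed a Benjamini-Hochberg adjusted p under 0.05 and an absolute log2 fold change of at least 0.585. SE is the fold change over the square root of F. In data simulated for this contrast over 28019 genes, 50 of 50 genes changed by 2-fold, 4-fold or 8-fold were recovered at each size and 20 of 50 changed by 1.5-fold, with 4 false calls. The simulation changed 200 genes above a minimum mean level and gave S2-020 and S2-028 the same levels. In the data 21.0% of genes tested were called between those lines. The simulated rates therefore do not carry over to low genes or to the calls as a whole.

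Named genes were called, separated and at a mean log2 CPM of at least 3 on the higher side, with the widest gap (15 coding and 3 noncoding per direction), plus up to 4 members of each list by adjusted p, and SERPINB5. Other members are named with their values seen, and some genes and 1 searched motif are not reported here. Sharing is the percent of a gene's 31-base words found in other GENCODE v44 genes. Members and lists were chosen with earlier results of these data known. Alternatives were other size factors, tests (DESeq2 1.42.0) and filters, pooling, a replicate block and leaving out each library.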

Additional observations from a re-analysis of the deposited data

How the results depend on the processing

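The counts of 2397 higher and 2186 lower genes kept within 1.5 times under RLE size factors, DESeq2, the likelihood ratio test, other count filters and each library left out (2268 to 2540 higher and 1984 to 2226 lower). They fell to 1422 and 1308 when tested against a 1.5-fold change, 1134 and 1356 with the other lines pooled, 1042 and 1114 when called against each other line, and 1119 and 1017 in separate fits of 6 libraries. Separated genes numbered 750 and 627 with a margin of 1.5-fold, and 3099 to 3716 and 3209 to 3792 with 1 library left out, where fewer libraries have to be cleared. Genes called and separated, an alternative chosen after seeing the data, numbered 1028 higher when called against each other line and 1007 lower in separate fits, and 1642 to 1782 and 1541 to 1753 with 1 library left out. Of the 112 genes picked by the naming rule above, 32 lost the call in at least 1 alternative, and 0 reversed. Other genes given with values were not followed singly through the alternatives. With a replicate block the calls were 2375 and 2185. Same-numbered libraries had correlations of deviations between -0.0219 and 0.014, so the numbers were not read as pairs. Depth limits the genes that rest on a few reads.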
